A study of Sus scrofa with 9 samples.

Results

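The oligos described here are the probes that lay below the detection threshold in the testis of a translocated boar and in no other group. They were chosen by a flag that the scanner software sets when a spot is well above its background. A probe was a member if the flag was absent on all 3 Testis_trcp(1;14) arrays and present on all 3 Testis_Control and all 3 Testis_Oligospermic arrays. Of 60889 non-control probes, 326 met this rule, which is 0.535%. The choice used the signal of all 9 arrays, so the low trcp(1;14) signal is a property of the choice and is given below as a description, without a test.

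Total RNA of testicular biopsies was labelled with cyanine 3 and hybridized to a custom porcine Agilent array of 60-base oligos. The trcp(1;14) arrays held 3 samples of 1 oligoasthenoteratospermic boar that carried a balanced reciprocal translocation between chromosomes 1 and 14. The oligospermic arrays held an oligospermic boar of normal karyotype (2n=38,XY), and the control arrays held boars with normal semen parameters, without a statement of which boar or pool each array held. The arrays therefore measure differences between a few animals, and the translocation and other differences between the animals cannot be told apart. In such whole-tissue RNA, fewer cells of a type and less RNA per cell cannot be told apart either. Each of 3 slides carried 1 array of each group. Between 37087 and 40632 probes per array were well above background, and between 52 and 275 were saturated, none of them a member.

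A 60-base oligo reports how much labelled RNA of a matching sequence is present. Its signal depends on the abundance of the transcript, on the part of the transcript that the oligo lies in, and on how well the oligo matches the animal's own sequence. A testis transcriptome is unusually broad, because meiotic and postmeiotic germ cells transcribe many genes whose known roles lie in other organs.

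The sequences of the oligos that the description turns on are shown first, as read from the array files, 5′ to 3′. The first 3 are unnamed transcript clusters with the largest limits whose cluster had no described similarity, and the rest stand for named genes. Capitals mark the bases that 2 overlapping member oligos of a gene share, which is the reason why the pairs of MYOT and CLCA4 are shown.
TC632056: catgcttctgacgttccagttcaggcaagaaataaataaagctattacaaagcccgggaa
TC617302: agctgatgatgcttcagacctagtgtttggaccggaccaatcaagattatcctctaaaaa
TC603352: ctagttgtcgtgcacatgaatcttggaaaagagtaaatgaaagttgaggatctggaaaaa
FASLG: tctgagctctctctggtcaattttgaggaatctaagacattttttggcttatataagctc
IL10, position 613: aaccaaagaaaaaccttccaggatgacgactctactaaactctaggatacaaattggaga
IL10, position 1246: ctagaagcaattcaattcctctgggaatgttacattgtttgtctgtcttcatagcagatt
ECT2L: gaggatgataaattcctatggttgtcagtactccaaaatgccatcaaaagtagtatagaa
OPN1SW: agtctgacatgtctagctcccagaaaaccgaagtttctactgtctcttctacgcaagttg
LHB: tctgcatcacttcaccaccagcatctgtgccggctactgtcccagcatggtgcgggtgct
CSRP3: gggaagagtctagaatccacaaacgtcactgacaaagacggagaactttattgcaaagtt
MYOT, position 1731: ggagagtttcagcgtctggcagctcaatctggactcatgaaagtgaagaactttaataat
MYOT, position 1633: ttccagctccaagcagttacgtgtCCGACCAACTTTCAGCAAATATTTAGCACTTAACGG
MYOT, position 1658: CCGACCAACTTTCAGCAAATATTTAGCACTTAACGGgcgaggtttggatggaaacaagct
CLCA4, position 2475: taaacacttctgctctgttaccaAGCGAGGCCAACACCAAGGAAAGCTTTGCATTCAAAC
CLCA4, position 2498: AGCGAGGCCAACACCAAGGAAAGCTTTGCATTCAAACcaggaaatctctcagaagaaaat
PROX1: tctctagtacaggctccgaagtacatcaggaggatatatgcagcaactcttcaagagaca
AEBP1: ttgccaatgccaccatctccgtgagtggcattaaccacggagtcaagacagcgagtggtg
Positions are the start that the array files list along each target transcript. The files list no genome position for these oligos, so none is given. The shared stretch was 36 bases in MYOT and 37 bases in CLCA4, and the members of such a pair are not independent measurements.

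The same pattern in the other groups was rarer. It was met by 18 probes that were absent only in controls and by 35 that were absent only in the oligospermic arrays. In the opposite direction, 218 probes were well above background only on the trcp(1;14) arrays, against 23 only in controls and 15 only in the oligospermic group. A further 33676 probes were above background on all 9 arrays and 16272 on none.

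The members were dim oligos. Values are log2 of the processed intensity after quantile normalization over the 9 arrays, and a fold is a lower limit: the mean of the bright group over, on each trcp(1;14) array, the higher of the probe's own signal and the lowest signal that was well above background there. The mean control level of the members ranged from 3.88 to 9.31 with a median of 5.0, and the oligospermic level from 3.96 to 9.71 with a median of 5.05. The median over all 35047 probes above background on the 6 control and oligospermic arrays was 8.44 in controls. Among those probes the share of members was 8.39% below a control level of 4.5, 1.94% between 5.5 and 6, and 0.0295% at 7 or more. Most of the members were thus oligos that lay a short way above the threshold in the groups that kept them. The limit of the fold, control over trcp(1;14), had a median of at least 2.6, or 1.3 with normexp background correction and an offset of 50, and was at least 4 for 57 members and at least 8 for 14. Against the oligospermic arrays the median was at least 2.69. The limits of single oligos below are given for quantile normalization only, and other processing could lower them.

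Loss of this flag did not mean loss of all signal. The software sets a second, less demanding flag when a spot is positive and significantly different from its background. Of the 326 members, 233 carried that second flag on all 3 trcp(1;14) arrays, 63 on 2, 22 on 1 and 8 on none. The 233 had a median trcp(1;14) level of 3.12, and the 8 had one of 1.55. FGG, the gamma chain of fibrinogen, was the only named gene among the 8. On each slide the trcp(1;14) array lay below its control neighbour for 326, 326 and 325 members, with median differences of -2.42, -2.32 and -2.08. For 325 of the 326 members, every trcp(1;14) array lay below every other array, and the exception was the transcript ENSSSCT00000029847, with 3.47 on control replicate 3 against up to 3.81 on the trcp(1;14) arrays. Over all probes tested, 26.2% had trcp(1;14) arrays that all lay below the controls and 30.2% ones that all lay below the oligospermic arrays. The counts of members that pass both thresholds of the limma fit, 186 against control and 207 against oligospermic, stand beside 4.3% and 4.89% of all probes called lower (1.31% were called higher than control), and nothing is read from them because the choice used these contrasts.

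At the edge of the rule, the weakest array of a member in the bright groups was 3.36, for TMOD2, which encodes a cap of the slow-growing end of actin filaments. The highest trcp(1;14) value of a member was 4.29, for the unnamed cluster TC574439. Just outside the rule, 209 probes kept the flag on 1 trcp(1;14) array and 836 on 2. Ranked by the highest trcp(1;14) value, the lowest of the former was a probe of the growth factor GDF5, at 3.48. A probe of ADIPOQ equalled it to the digits given. A further 187 probes lacked the flag on 1 of the 6 bright arrays, the brightest of them with a lowest value of 4.24.

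The largest limits belonged to unnamed transcript clusters. TC632056 measured 9.56, 9.07 and 9.29 in controls, 9.25, 9.44 and 9.65 in the oligospermic boar, and 1.38, 1.40 and 1.80 in the trcp(1;14) boar. It was at least 52.1-fold higher in controls and at least 57.3-fold higher in the oligospermic group, and it carried the less demanding flag on 1 of the 3 trcp(1;14) arrays. No other member was as bright in both groups. TC603352 measured 6.93, 7.30 and 6.75 in controls, 7.01, 6.95 and 6.95 in the oligospermic group, and 2.25, 2.43 and 1.43 on the trcp(1;14) arrays, at least 10.5-fold below controls.

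Other clusters were uneven among the controls. TC617302 measured 7.24, 6.02 and 9.62 in controls, between 5.68 and 6.24 in the oligospermic group and between 1.38 and 2.35 in the trcp(1;14) group, and its limit against control, at least 16.2-fold, became 8.12-fold without control replicate 3 and 28.3-fold without control replicate 2. TC534937 measured 9.62 and 9.83 on control replicates 1 and 2 but 3.52 on control replicate 3, against 9.60, 9.57 and 9.94 in the oligospermic group and 3.41, 2.73 and 2.77 in the trcp(1;14) group. For this cluster 1 control array therefore lay near the trcp(1;14) level and the control limit of 16.6-fold became 69.4-fold without it, 8.39-fold without control replicate 1 and 7.81-fold without control replicate 2. Over all members, the limit moved by over 1.5 times without 1 control or trcp(1;14) array for 15, in each case a control array.

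Named genes were a minority. Through the deposited identifiers and a RefSeq gene table, 126 of the 326 members matched 104 genes, and 157 members had no description in the array files. Over the whole array 34.4% of probes matched. The members comprised 222 catalogue oligos, 63 custom oligos and 34 designed on a database entry. They held 317 distinct sequences with a median GC content of 45%, against 41.7% for probes above background on the 6 control and oligospermic arrays. There were 17 genes with 2 or more members.

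Immune signalling genes among the members included FASLG and IL10. The immune-cell genes GRAP2 and ITGAL, outside the marker lists and named after their values were seen, had members too. FASLG encodes Fas ligand, a membrane protein that triggers apoptosis in cells with the Fas receptor. The first of its 2 spots of identical sequence measured 7.17, 6.39 and 6.72 in controls, 6.14, 5.75 and 6.12 in the oligospermic group, and 2.52, 1.53 and 2.01 in the trcp(1;14) group. The other spot followed it, at 6.62 ± 0.53, 5.93 ± 0.13 and 2.61 ± 0.21 (SD, n = 3). Control was at least 8.9-fold and at least 8.06-fold higher on the 2 spots. IL10, an anti-inflammatory cytokine, had 3 members with 2 sequences. Its oligo at position 613 measured 5.98, 6.22 and 4.76 in controls, 5.61, 5.04 and 5.77 in the oligospermic group, and 2.00, 1.39 and 1.41 in the trcp(1;14) group. The other sequence, on 2 spots, was dimmer, with control means of 4.64 and 4.56, and at least 2.04-fold and 1.93-fold higher in controls.

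The other genes of these pathways did not all follow. Of the 26 genes listed as death ligands, receptors and caspases, 20 were on the array with 64 probes, and 3 probes of FASLG and CASP10 were members. Against control, 3 of the 59 tested probes of the list were called lower and 0 higher, and their median log2 difference was 0.25, against 0.14 for all tested probes. FAS, the receptor of Fas ligand, had its brightest probe at 4.57 in controls and 4.90 in the trcp(1;14) group. FASLG was also the only member among 49 markers of T and NK lymphocytes. Of the 36 markers on the array, 15 were above background on no array of any group, among them CD2, CD3D, CD3G, CD4, CD8A, CD8B and PRF1. The summed level of the list ran from 14.10 to 14.49 in controls, 14.19 to 14.67 in the oligospermic group and 14.14 to 14.53 in the trcp(1;14) group, and 4 of its 28 tested probes, the FASLG spots included, were called lower against control and 0 higher. The other 2 were of the chemokine receptor CXCR6, the brighter of which averaged 7.25 in controls, 6.43 in the oligospermic group and 4.99 in the trcp(1;14) group. The median log2 difference of the list was -0.37 against control and -0.69 against oligospermic. Its brightest genes were CD247 and GNLY, whose brightest probes averaged 12.97 and 12.60 in controls and 13.03 and 13.18 in the trcp(1;14) group, while the brightest of GZMB averaged 11.28 and 9.60. HRH4, a histamine receptor of immune cells, had 2 members at 4.88 and 5.13 in controls and 3.09 and 2.29 in the trcp(1;14) group. CMPK2, a mitochondrial nucleotide kinase, had 2 members of 1 sequence at 4.93 and 4.78 in controls, 5.58 and 5.46 in the oligospermic group, and 3.35 and 3.01 in the trcp(1;14) group. The interleukin receptor-like IL1RAPL2 was the only member placed on the X chromosome, at 4.28 in controls and 3.01 in the trcp(1;14) group.

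Hormones and growth factors were also among the members. LHB encodes the beta chain of luteinizing hormone, which drives Leydig cells. Its member measured 6.60, 6.88 and 7.04 in controls, 7.15, 6.80 and 7.01 in the oligospermic group, and 3.76, 2.94 and 3.78 in the trcp(1;14) group, at least 8.18-fold below controls. GPHB5, a glycoprotein hormone chain of the same family, measured 6.03, 6.20 and 5.92 in controls and 2.52, 3.25 and 3.45 in the trcp(1;14) group. FGF9, a growth factor of gonad development, had 3 members whose control values spread widely, from 3.51 to 5.53 over the 3 spots, with trcp(1;14) means between 1.53 and 2.26. PGF, a relative of vascular endothelial growth factor, had members at 5.10 and 4.29 in controls and 3.79 and 2.58 in the trcp(1;14) group. RLN3, a relaxin hormone named after its values were seen, averaged 4.09 in controls, 4.16 in the oligospermic group and 2.51 in the trcp(1;14) group. In every one of these genes the oligospermic mean lay within 0.48 of the control mean. Of 47 genes listed as bone morphogenetic protein and TGF-beta ligands, receptors and antagonists, 33 were on the array, 0 of their probes were members, and 2 of 78 tested probes were called lower against control and 0 higher. The member BG733101, an expressed sequence tag, nevertheless shared its 60 bases with 2 probes of GDF5 from that list, which averaged 6.17 and 5.33 in controls and 4.82 and 3.12 in the trcp(1;14) group.

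Other members were of genes known from germ cells or of signalling proteins. ZAN and SPACA9, sperm genes named after their values were seen, each had a member. Their brightest probes of other sequence averaged 13.49 and 14.77 in controls, 13.43 and 14.77 in the oligospermic group, and 12.64 and 13.32 in the trcp(1;14) group. ECT2L, a relative of a guanine nucleotide exchange factor of cell division, had 3 members of 1 sequence. The printed oligo measured 7.17, 7.45 and 6.39 in controls, 7.30, 6.94 and 6.94 in the oligospermic group, and 3.14, 2.59 and 3.22 in the trcp(1;14) group. The limits of the 3 spots lay between 10.2-fold and 11.1-fold, the largest of any named gene. WEE2, a kinase known for holding oocytes in meiosis, had 2 members of 1 sequence at 5.46 and 5.51 in controls and 3.13 and 2.88 in the trcp(1;14) group. PDE4A, a phosphodiesterase that degrades cyclic AMP, had 2 members at 4.57 and 5.44 in controls and 2.41 and 3.09 in the trcp(1;14) group. RALGPS1, an activator of Ral GTPases, averaged 6.46 in controls and 3.55 in the trcp(1;14) group, and SEMA4D, a semaphorin of axon guidance and immune cells, 6.11 and 3.18.

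OPN1SW encodes the short-wave-sensitive cone opsin. Its 2 oligos, of different sequence, differed by at most 0.33 on any array. The printed oligo measured 6.79, 5.21 and 6.63 in controls, 6.26, 5.96 and 6.30 in the oligospermic group, and 2.37, 1.68 and 2.21 in the trcp(1;14) group, at least 6.07-fold lower than controls. Control replicate 2 was the lowest control on both. Of 33 genes of phototransduction, 7 were on the array, 2 of the 11 tested probes were called lower against control and 0 higher, and both were the OPN1SW members. The median log2 difference of the 11 was -1.12.

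Genes of striated muscle included MYOT, a Z-disc protein, and CSRP3, a LIM protein of muscle. The MYOT oligo at position 1731 measured 6.73, 5.29 and 5.73 in controls, 5.46, 5.03 and 5.33 in the oligospermic group, and 2.48, 2.96 and 2.51 in the trcp(1;14) group. All 4 MYOT members had their highest value on control replicate 1. Of the 24 MYOT probes on the array, 11 were above background nowhere and none on all 9 arrays. CSRP3 measured 7.03, 7.32 and 5.14 in controls, 6.17, 5.95 and 6.24 in the oligospermic group, and 2.73, 3.68 and 3.32 in the trcp(1;14) group, at least 7.43-fold lower than controls, or 11.9-fold without control replicate 3. RYR1, the calcium release channel of skeletal muscle, averaged 4.44 and 3.01. A titin oligo and XIRP2, an actin-binding muscle protein, which were chosen after their values were seen, stood at 5.33 and 5.32 in controls, 4.44 and 4.74 in the oligospermic group and 2.18 and 3.03 in the trcp(1;14) group. Other XIRP2 probes were low in the oligospermic group too: 4 with control means from 4.36 to 5.03 averaged between 1.86 and 2.82 there and between 1.89 and 2.47 in the trcp(1;14) group. In a list of 19 muscle fibre genes made after the values were seen, 11 of 70 tested probes were called lower against control and 0 higher, with a median log2 difference of -0.31, and 9 were called lower and 1 higher against oligospermic. The 11 were 4 probes of MYOZ1 and 7 of the 16 tested probes of ACTA1, and no other gene of the list was called against control. On the brightest probe MYOZ1 averaged 14.41 in controls and 12.27 in the trcp(1;14) group, ACTA1 12.68 and 12.36, and TCAP 5.36 and 6.21. The summed level of that list, in which MYOZ1 was the brightest gene in controls, ran from 14.82 to 14.92 in controls, 14.58 to 14.78 in the oligospermic group and 13.39 to 13.55 in the trcp(1;14) group, while the fast myosins MYH1 and MYH2 were above background on no array. Whether muscle fibres had a part in these results was not tested.

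Metabolic genes among the members included ACACB, the acetyl-CoA carboxylase that restrains fatty acid oxidation. It measured 7.04, 6.51 and 6.31 in controls, 6.19, 5.86 and 6.11 in the oligospermic group, and 3.36, 3.91 and 3.42 in the trcp(1;14) group, at least 8-fold lower than controls. CYP2E1, a cytochrome P450 that oxidizes ethanol, measured 6.25, 5.64 and 5.46 in controls, 4.90, 4.5 and 5.02 in the oligospermic group, and 3.04, 1.98 and 3.13 in the trcp(1;14) group. The oligospermic arrays of CYP2E1 lay between the other groups without overlap. FMO5, a flavin-containing monooxygenase, had 2 members at 5.78 and 5.40 in controls and 2.88 and 2.90 in the trcp(1;14) group. CYP2C49, also a cytochrome P450, averaged 4.72 in controls and 3.72 in the trcp(1;14) group. SDR16C5, a retinol dehydrogenase, measured 6.47, 6.26 and 4.81 in controls, but 4.80, 4.17 and 4.5 in the oligospermic group, so that its limit was at least 4.6-fold against control and at least 1.79-fold against oligospermic. A ceruloplasmin-like gene, LOC100158001, had 2 members at 5.58 and 5.36 in controls and 2.22 and 1.53 in the trcp(1;14) group, and the limit of the first, at least 3.93-fold, became 6.12-fold without control replicate 3. The fat-cell genes ADIPOQ, a hormone, and PPARG, a transcription factor, named after their values were seen, stood at 4.62 and 5.52 in controls and 3.05 and 3.71 in the trcp(1;14) group. In a list of 15 adipocyte genes made at the same time, which holds 3 members, 6 of 39 tested probes were called lower against control and 0 higher, and 4 of 38 were called lower and 3 higher against oligospermic. Its genes did not run one way: the brightest probe of LIPE averaged 13.17 in controls and 10.52 in the trcp(1;14) group and that of DGAT2 12.97 and 11.13, whereas CIDEA averaged 9.71 and 10.68, and the brightest probes of CEBPA and LPL 7.28 and 8.37 and 8.46 and 9.78. The summed level ran from 14.18 to 14.62 in controls, 14.26 to 14.55 in the oligospermic group and 12.84 to 12.98 in the trcp(1;14) group. The part of fat cells in these results was not tested.

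Membrane channels and transporters were also named. KCNRG, a regulator of potassium channels, averaged 5.38 in controls, 5.77 in the oligospermic group and 3.39 in the trcp(1;14) group, and KCNQ5, a voltage-gated potassium channel, 4.52, 4.53 and 1.45. SLC12A5, a potassium chloride cotransporter of neurons, averaged 5.61, 5.94 and 2.93, and SLC28A2, a nucleoside transporter, 4.79, 5.14 and 3.25. CLCA4 belongs to the calcium-activated chloride channel regulator family, and its overlapping oligos measured between 4.41 and 6.14 in controls, between 6.20 and 6.43 in the oligospermic group, and between 2.77 and 4.17 in the trcp(1;14) group.

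Members of matrix, epithelial and nuclear genes follow, and not every gene that a member matched is named in this report. The collagenase MMP-13 measured 6.43, 6.56 and 5.51 in controls and 2.67, 2.70 and 2.56 in the trcp(1;14) group, at least 5.91-fold lower. In controls and the trcp(1;14) group, the epidermal keratin KRT1 averaged 5.96 and 3.44, FGG 5.92 and 1.73, the integrin chain ITGB6 5.18 and 3.10, the collagen COL12A1 5.03 and 1.55, and the matrix protein TNC 4.58 and 2.04. Among transcription regulators, ZBTB26 averaged 5.62 in controls, KLF9 4.76 and FOXH1, a partner of SMAD proteins, 4.74, with trcp(1;14) means of 2.81, 2.91 and 3.35. PYGO1, a cofactor of Wnt signalling, had 2 members of 1 sequence at 4.98 and 5.09 against 3.18 and 3.09. ITPRIP, which binds the inositol trisphosphate receptor, likewise had 2 at 5.42 and 5.39 against 3.06 and 3.31, and the myosin-binding MYRIP had 2 at 4.85 and 4.58 against 3.01 and 2.48. FAM214B stood at 6.12 against 3.02.

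Between the oligospermic and control arrays the rule limited what could differ, because it asked for the flag on all 6. The members had a median control level of 5.0, and the lowest signal well above background on the oligospermic arrays was 3.48 to 3.89, so that a typical member lower by 2 would not have been chosen. Nothing is therefore read from the absence of calls. No member was called between them by limma at the thresholds used here, an adjusted p up to 0.01 with a log2 difference from 2 upwards, where 18 of 39713 tested probes (0.0453%) were called higher and 11 (0.0277%) lower. With the slide, which pairs these arrays, as a block, 0 probes were called. At an unadjusted p under 0.05, 38 members were higher in the oligospermic boar and 31 lower, against 4.69% and 5.14% of all tested probes. The median difference over the members was 0.04, and the range from the 5th to the 95th percentile was -0.82 to 0.78. The smallest adjusted p was 0.0672 in limma, for the transcript ENSSSCT00000014571, which measured 5.09, 4.92 and 5.03 in controls and 6.32, 6.03 and 6.61 in the oligospermic group. KRT1 differed by -0.89 ± 0.19 (SE) with an adjusted p of 0.195 in limma. A miss of the threshold does not show that the 2 groups were alike.

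Some oligos were printed on more than 1 spot. There were 38 member probes with at least 1 such spot, and 24 spots that were not members themselves. Of these 24, 15 were above background on all 6 control and oligospermic arrays, and 9 had the flag on no trcp(1;14) array, 2 of them on no array of any group. All trcp(1;14) arrays lay below all others on 20 of the 24, beside 26.2% of all tested probes below control and 30.2% below oligospermic, with a median control minus trcp(1;14) difference of 1.63. These spots measure the contrast that chose the members, and nothing is read from the count. ADIPOQ had its second spot at 4.73, 4.90 and 3.11 in the control, oligospermic and trcp(1;14) groups and the flag on 1 trcp(1;14) array. AEBP1, a matrix protein named after its values were seen, had unlike spots. Its member measured 4.25, 4.10 and 3.91 in controls, 5.73, 5.25 and 3.85 in the oligospermic group and 1.48, 1.31 and 1.36 in the trcp(1;14) group, whereas its second spot of the same 60 bases was above background nowhere, at 1.59, 1.52 and 1.48.

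Probes of other sequence for the same genes behaved in more than 1 way. Of 149 genes or transcripts that members name, 82 had such a probe, 233 in all. They measure the same contrast as the rule and are given without a test. Of the 233, 116 were above background on all 9 arrays, and 59 of these 116 (50.9%) were lower in the trcp(1;14) group than in controls by at least 1 on the log2 scale, against 12.9% of all 33676 such probes. A further 28 (24.1%, against 47.1% of all such probes) differed by less than 0.5, and 9 were higher by at least 0.5, which were 5 probes of P4HA1, 2 of PBX2 and 1 each of FOXH1 and PRDM10, named after their values were seen.

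For some genes the brighter probes were lower as well. ACACB had a probe at 8.42, 8.06 and 5.57 in the control, oligospermic and trcp(1;14) groups. LHB had one at 7.39, 7.52 and 4.94, although its probe at position 860 differed by only -0.37. PDE4A had 4 other probes above background throughout, with trcp(1;14) minus control differences between -1.44 and -2.49. In controls and the trcp(1;14) group, WEE2 averaged 9.76 and 7.56 on its other probe, CMPK2 11.07 and 9.33, and CYP2E1 8.05 and 5.80. The 3 further PPARG sequences, at the neighbouring positions 1459, 1464 and 1479, averaged between 8.08 and 8.34 in controls and between 6.28 and 6.56 in the trcp(1;14) group.

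For other genes the probes differed among themselves. The CASP10 member, at position 629, measured 5.62, 5.54 and 5.58 in controls, 5.0, 4.55 and 5.17 in the oligospermic group and 3.50, 4.01 and 3.65 in the trcp(1;14) group. Its neighbours at positions 496 and 636 differed by -2.46 and -1.82 from control, while 3 probes at the neighbouring positions 2137 and 2141 stood between 14.49 and 15.39 in controls and between 14.81 and 15.54 in the trcp(1;14) group. KLF9 had its member at position 261 and probes at 170 and 453 with differences of -1.43 and -1.74, while its 4 probes from position 4204 on differed by between -0.07 and -0.20. The KCNQ5 member at position 2079 and a probe at 2707, with a difference of -2.54, stood beside 4 probes that differed by at most 0.12. PROX1, a homeobox factor named after its values were seen, averaged 4.65 in controls and 1.68 in the trcp(1;14) group on its member and 10.77 and 7.78 on a probe at position 1961, and a probe at position 42 differed by -1.69, but 2 custom probes were higher by 0.38. The custom probes of PROX1 and 3 of the 4 KCNQ5 probes list no position, the CASP10 probes at 2137 and 2141 were far brighter than its member, and whether position or level goes with the difference was not tested. TNC differed again: its other 2 probes both stood at 7.97 in the oligospermic group, against 4.52 and 4.19 in controls and 3.61 and 3.71 in the trcp(1;14) group.

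Of the members, 124 matched a gene placed on a chromosome of the Sscrofa11.1 gene table. Chromosome 1 held 23 and chromosome 14 held 16, the 2 chromosomes of the translocation. As a share of placed probes above background on the 6 control and oligospermic arrays, this was 1.29% and 0.805%, against 0.801% over all chromosomes, and chromosome 18 had the highest share, 2.31%, from 5 members. Counted by gene, the shares were 3.23% on chromosome 1, the highest, 2.91% on chromosome 18 and 2.38% on chromosome 14, against 1.68% over all. Among such probes with a control level under 6 the shares were 6.27% on chromosome 1, 5.09% on chromosome 14 and 4.81% over all. The X chromosome held 1 member. Its shares were 0.224% by probe, 0.485% by gene and 1.19% among probes with a control level under 6. These shares are descriptions of a few genes, several with more than 1 probe.

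Markers of some other testis cells differed between the groups. Of 55 tested probes of spermatid markers 15 were called lower in the trcp(1;14) group than in controls and 0 higher, and of 50 probes of Leydig markers 26 were called higher and 0 lower. The summed level of the spermatid list was 19.41 to 19.47 in controls, 19.45 to 19.55 in the oligospermic group and 18.68 to 18.81 in the trcp(1;14) group, and that of the Leydig list 16.08 to 16.13, 15.77 to 16.27 and 17.17 to 17.29. Between controls and the trcp(1;14) group the sums of 3 other lists of testis cells did not overlap either, at 16.49 to 16.61 and 16.17 to 16.29 for spermatocytes, 13.32 to 13.66 and 13.93 to 13.98 for spermatogonia, and 14.39 to 14.98 and 15.27 to 15.48 for Sertoli cells. In the oligospermic group the spermatocyte sum, 16.67 to 16.75, did not overlap that of controls either. The oligospermic sums were 13.24 to 13.57 for spermatogonia and 14.42 to 14.88 for Sertoli cells. The median log2 difference of the spermatocyte list, trcp(1;14) against control, was 0.05, against 0.14 for all tested probes. The lists of spermatocytes, spermatogonia and peritubular and vascular cells had 0 called probes in either direction, Sertoli cells had 2 lower and 0 higher although their sum was higher, B lymphocytes 0 and myeloid cells 1 lower. None of these lists held a member, and every spermatid and Leydig marker on the array was above background somewhere. The sperm genes ZAN and SPACA9, which had members, are in none of the lists. The part of cell composition in the loss of the 326 oligos was not tested.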

How the data were processed

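The authors scanned the arrays and deposited, for each spot, the processed intensity, which their Agilent Feature Extraction software background-subtracted and detrended without normalization between arrays. A second deposited table held the authors' log2 values of 38759 probes out of 60889, with 306 members among them. Per the labels, limma was used. For this report, log2 of the processed intensity was quantile normalized over 9 arrays (limma 3.58.1, R 4.3.3, Python 3.11.15), and probes well above background without outlier flag on at least 2 of 3 arrays of either group were fitted with lmFit and eBayes, with Benjamini-Hochberg adjustment, an adjusted p of at most 0.01 and a log2 fold change of at least 2. Tested on simulated data, the fit recovered 83.5% of 200 probes given a log2 change of 3 among the 39713 probes of oligospermic against control. The changed probes were drawn from all tested probes, so the share does not describe recovery among the dim members. P-values measure the spread between arrays, which may be technical.

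The summed level of a marker list is the log2 of the sum, over its genes, of the brightest probe. The members and lists were chosen with earlier results of these data known. Genes were named if 2 or more members named them, if among the 15 largest limits, if in a fixed marker or pathway list, up to 3 per gene family, if called between oligospermic and control, or if nearest to the detection threshold; other names are marked in the text or are unnamed clusters. Probes were matched to the RefSeq table of Sscrofa11.1 for names and chromosomes only. The replicate numbers pair oligospermic and control arrays through the slide: deviations of same-numbered arrays correlated at 0.478, 0.136 and 0.101. Arrays on the same slide correlated at 0.339, 0.109 and 0.119 for trcp(1;14) with control and at 0.489, 0.292 and 0.33 for trcp(1;14) with oligospermic, where the numbers did not match the slides.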

Additional observations from a re-analysis of the deposited data

How the results depend on the processing

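With the less demanding flag, positive and significant, in place of well above background, the rule found 177 probes, of which 8 were among the 326. With 2 of 3 arrays of each group it found 1098, the 326 included. Without 1 array it found between 327 and 456. The median limit of the fold, 2.6, became 2.35 with scaling to the 75th percentile and 1.3 with normexp and an offset of 50, and lay between 2.46 and 2.88 without 1 array. The members called trcp(1;14) against control, 186, became 1 with normexp and lay between 136 and 169 without 1 array. Of all tested probes, 5.61% were called in either direction, 2.45% with normexp and between 4.78% and 5.95% without 1 array. The members called trcp(1;14) against oligospermic, 207, became 2 with normexp and lay between 174 and 203 without 1 array. Of all tested probes, 6.82% were called there, 2.73% with normexp and between 5.93% and 7.44% without 1 array. The other alternatives kept both counts of members within 1.5 times. The slide pairs the arrays in every comparison, while the replicate number pairs only oligospermic with control. With slide as a block 176 and 208 members were called in the trcp(1;14) comparisons, beside 5.53% and 6.88% of all tested probes. With the replicate block 144 and 202 were called, beside 5% and 6.73%. In oligospermic against control both blocks called 0 members and 0 of all probes, where 29 probes were called without a block. In that comparison limma called 0 members under each alternative, with between 33 and 83 at an unadjusted p under 0.05, but the choice of members, which needed the flag on these 6 arrays, limits such calls, and the zeros say nothing about stability. A filter that requires both groups above background left no member to test against the trcp(1;14) group, so no value is given. The offset of normexp adds a constant to dim signals, and members lie near it. The number of arrays, 3 a group, and signals close to background limit the precision.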
